A study of Mus musculus with 12 samples.

Results

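The microRNAs of the miR-297, miR-466, miR-467 and miR-669 families were followed in the lungs of mice that received dietary flaxseed, radiation, both or neither. Members were taken by name: every assay of the deposited normalized table whose name begins with one of these 4 family names, with the opposite hairpin arms (marked # in the assay names) left out. The panel held 30 such assays among 750 microRNA assays, 28 of them named for mouse and 2 for rat microRNAs. Of the 30, 4 gave a value in lung: miR-466a-3p, miR-466b-3-3p, miR-467a and miR-467c.

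The samples were lungs of 12 C57BL/6 mice, 3 in each of 4 groups, collected 48 hours after radiation or no exposure. Mice 2, 4 and 5 ate the control diet and were not irradiated, and mice 7, 8 and 9 ate the control diet and received 13.5 Gy. Mice 11, 12 and 13 ate a diet with 10% flaxseed for 21 days and were not irradiated, and mice 15, 17 and 18 ate the flaxseed diet and received 13.5 Gy. Each microRNA was measured by quantitative PCR on TaqMan OpenArray plates, and the replicates are separate animals. Whole lung was homogenised, so fewer cells of a type and less RNA per cell cannot be told apart.

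A microRNA hairpin is cut from a longer transcript, and the mature strand guides Argonaute proteins to messenger RNAs that pair with its seed, the bases near its 5′ end. The 4 families belong to a large rodent cluster that lies in an intron of Sfmbt2, a gene for a Polycomb group protein that is imprinted in mice and expressed from the paternal allele in the placenta. The cluster is made of many near-identical hairpins and is best known from the placenta and from embryonic cells.

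RefSeq's annotation of the mouse assembly GRCm38.p6 lists 81 microRNA genes of these families, of which 71 lie inside Sfmbt2 and 10 elsewhere. Inside Sfmbt2, a miR-467, a miR-466 and a miR-669 gene follow each other as neighbours 11 times. By name, 27 of the 28 mouse assays matched an annotated gene, 22 of them only inside Sfmbt2 and 5 only outside it. The assay without a match was miR-466a-3p, so its place in the cluster rests on its family name. miR-467a is annotated at 10 loci and miR-669a at 12, all inside Sfmbt2, while miR-467c and miR-466b-3 each have 1 locus there. An assay for a repeated member reads the sum of its loci, and an assay in a family of near-identical copies may also read its relatives, so the levels of single members are uncertain in that respect.

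Mature sequences from RefSeq (GRCm38.p6) were at hand for the 5 members outside Sfmbt2. They show the repeat-like composition and the seeds of these 5 only, and the 4 members with a value are not among them. Each runs 5′ to 3′, with the seed (bases 2 to 8) in capitals.
miR-466j, chr10:60960802-60960824, + strand: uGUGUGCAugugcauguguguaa
miR-466k, chr3:85467396-85467418, + strand: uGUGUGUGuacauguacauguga
miR-467f, chr11:69635419-69635439, - strand: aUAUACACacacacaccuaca
miR-467h, chr9:115381898-115381919, + strand: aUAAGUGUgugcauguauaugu
miR-669n, chr3:115979905-115979924, + strand: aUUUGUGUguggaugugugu
The 5 sequences have 5 distinct seeds, so none of them shares a seed with another. The string UGUGUG, searched on the mature strand, occurs in 4 of the 5. In the same set of RefSeq sequences it occurs in 28 of 1738 mature mouse sequences (1.61%), these 4 included. G or U made up 73.9% of miR-466j, 69.6% of miR-466k, 68.2% of miR-467h and 90.0% of miR-669n, where the median of all mature sequences was 54.5%. miR-467f, with 14.3%, holds the complementary letters instead, a run of alternating A and C. None of these 5 assays gave a value in any mouse.

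Most assays named for the 4 families gave no value in lung. A reaction gives a relative threshold cycle (Crt), which falls by 1 for each doubling of template if the product doubles in each cycle, and an assay was counted as having a value if the normalized table listed one in at least 1 mouse. The members' share was 4 of 30 (13.3%), against 308 of the 720 other microRNA assays (42.8%), which include 3 opposite arms of these families. The 30 include the 5 assays matched only outside Sfmbt2 and the 2 rat assays, so this is a share of assays taken by name. By family, 2 of 10 miR-466 assays and 2 of 8 miR-467 assays had a value, while 0 of 2 miR-297 assays and 0 of 10 miR-669 assays did. The primers come in 2 pools that differ in yield: members with a value were 2 of 10 in pool A, where 51.5% of all microRNA assays had a value, and 2 of 20 in pool B, where 31.6% had one.

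**Figure D1:**
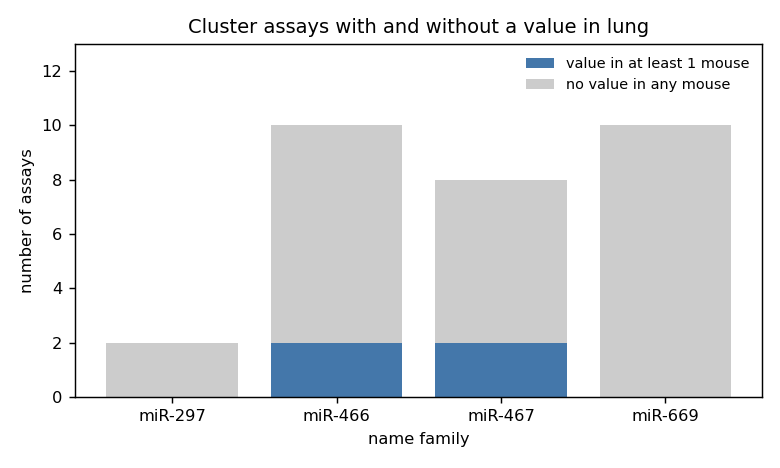
Stacked bars give the number of assays in each of the 4 name families (vertical axis, count), split into assays with a value in at least 1 of the 12 mice and assays with none. Values appear for 2 of 10 miR-466 and 2 of 8 miR-467 assays, and for 0 of 2 miR-297 and 0 of 10 miR-669 assays.

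The miR-466 assays without a value were miR-466d-5p, miR-466E-5P, miR-466G, miR-466h, miR-466J, miR-466K and the rat assays for miR-466b and miR-466c. In the miR-467 family, miR-467b, miR-467d, miR-467e, miR-467F and miR-467H had no value. The panel carries miR-467a as separate assays in both pools, and they disagreed: the pool A assay (002587A) had values and the pool B assay (001826B) had none. A missing value therefore need not mean that the microRNA was absent. The assays without a value in the other families were miR-297b, miR-297c, miR-669a, miR-669C, miR-669D, miR-669E, miR-669G, miR-669H-5P, miR-669L, miR-669M, miR-669N and miR-669O. The miR-669a assay reads a member with 12 annotated loci and had no value in any of the 12 mice, so the number of loci did not order the assays by detection. Of 3 assays for opposite arms, miR-467# had values and miR-297a# and miR-467e# had none.

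The tissue label was checked against microRNAs that mark cell types. All 8 epithelial assays (the miR-200 family, miR-141, miR-429 and miR-375) were detected in all 12 mice, as were miR-126 of endothelium, 3 assays for miR-143 and miR-145 of smooth muscle, and 3 of 5 assays of ciliated cells. Lymphoid and myeloid markers were detected in all mice (3 of 3 assays each), and liver's miR-122 in none. Some markers of other tissues were also detected in all 12 mice: miR-124a of neurons, 4 of 5 striated muscle assays (of miR-1, miR-133a and miR-133b) and miR-451 of red cells. The other red cell assay, miR-144, and the remaining striated muscle assay, miR-206, had no detection. Of 16 assays for microRNAs of pluripotent and trophoblast cells (miR-290 to miR-295 and miR-302), 15 had no detection, and the other, an assay of miR-292-3p, had one in 11 mice.

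The unirradiated flaxseed mice stood apart as samples. Detected microRNAs numbered 281 in mouse 13 and 291 in mouse 11, and fewer in mouse 12 too than the 307 to 312 of the other 9 mice, and the mean Crt of the microRNAs detected everywhere was 21.2 in mouse 13 and 20.4 in mouse 11 against 19.4 to 20.1 in the other 10 mice. In mouse 11 the gap between pools B and A was 1.78 cycles, against 2.37 to 2.81 elsewhere. The Crt values are also written in different ways: 39.0% to 48.2% of them run to 4 decimals in the unirradiated control and the irradiated flaxseed mice, and at most 0.656% do in the remaining 6. Every comparison that changes only diet or only radiation therefore lies across this split and cannot be told apart from it. The interaction of diet with radiation sets exactly the groups on its opposite sides against each other and cannot be told apart from it either. Each effect pooled over both levels of the second factor is balanced over it, and the comparisons of both treatments with neither and of unirradiated flaxseed with irradiated control lie within it. Its part in the results was not tested.

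Levels are given as log2 values relative to the mean of the 260 microRNAs detected in all mice (the global mean), so that 0 is the mean microRNA and a lower number means less RNA. All 4 detected members were scarce. Ranked from the most abundant of 296 tested microRNAs, miR-467c was at 211, miR-467a at 231, miR-466b-3-3p at 265 and miR-466a-3p at 268. miR-467c was higher than miR-466a-3p in 12 of 12 mice and higher than miR-466b-3-3p in 11 of 11. The neighbours in this order were not separated: miR-466a-3p was the higher of the miR-466 pair in 3 of 11 mice, with a mean difference of -0.19 ± 0.54 (SD), and miR-467a was above miR-467c in 4 of 11. The efficiency of each assay is unknown here, so this order is of assay levels.

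The members also differed in scatter. The within-group SD was 0.38 for miR-466a-3p, 0.30 for miR-466b-3-3p and 0.37 for miR-467c, close to or under the median of 0.37 over the 296 microRNAs. That of miR-467a was 0.73, at rank 250 of 296 from the smallest.

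The miR-466 members had lower levels in irradiated mice, a difference that did not pass the test pooled over diet. miR-466b-3-3p was at -4.73, -4.86 and -4.23 in unirradiated control mice 2, 4 and 5, and at -5.44, -6.04 and -5.90 in irradiated control mice 7, 8 and 9. On flaxseed it was at -4.98 and -4.85 in unirradiated mice 11 and 13, with no Crt in mouse 12, and at -5.33, -5.94 and -5.74 in irradiated mice 15, 17 and 18. Every irradiated mouse lay below every unirradiated mouse with a value, on both diets.

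For miR-466a-3p, which was measured in all 12 mice, the unirradiated control mice 2, 4 and 5 were at -5.34, -5.26 and -5.17 and the irradiated control mice 7, 8 and 9 at -5.82, -5.47 and -5.55. On flaxseed, the unirradiated mice 11, 12 and 13 were at -5.12, -5.28 and -4.10, and the irradiated mice 15, 17 and 18 at -5.92, -6.49 and -5.92. Again all 6 irradiated mice lay below all 6 unirradiated ones, with the narrowest gap on the control diet. Mouse 13, the highest, also had the highest mean Crt of all mice, and its raw Crt for this assay (25.3) was within the range of the other unirradiated mice.

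Pooled over diet, the limma difference of irradiated from unirradiated mice was -0.97 ± 0.19 (SE) for miR-466b-3-3p, 1.96-fold lower, and -0.81 ± 0.21 for miR-466a-3p, 1.76-fold lower. Neither passed after adjustment over all tested microRNAs: limma's adjusted p was 0.0957 for miR-466b-3-3p, whose unadjusted p of 0.000545 was the smallest of all 296, and 0.121 for miR-466a-3p, at rank 7. In this comparison limma called 0 of 296 microRNAs (0.0%), with 50 at an unadjusted p under 0.05. Irradiated and unirradiated mice with a value did not overlap for 3 of 296 microRNAs (1.01%), miR-466a-3p (6 mice against 6), miR-466b-3-3p (6 against 5, with mouse 12 undetected) and miR-187. With mouse 12 kept in by setting undetected reactions to a Crt of 28, the difference of miR-466b-3-3p was -0.47 ± 0.48 (limma adjusted p = 0.672). The separation depended on the scaling: both members separated with the authors' normalized values, only miR-466a-3p with quantile normalization, only miR-466b-3-3p with scaling to the control RNAs, and neither with a separate mean for each primer pool or without normalization. Without normalization the pooled differences were -0.31 and -0.28, where the median of all tested microRNAs moved from -0.07 to 0.45, so both members were lower relative to that median under either scaling.

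The effect of radiation was then taken within each diet. On the control diet, miR-466b-3-3p differed by -1.18 ± 0.25 (SE), with an unadjusted p of 0.00101 and a limma adjusted p of 0.15, and miR-466a-3p by -0.35 ± 0.30 (limma adjusted p = 0.83). limma called 0 of 296 microRNAs here (0.0%), with 30 at an unadjusted p under 0.05, and the 2 members were among the 6.08% whose irradiated control mice all lay lower. On flaxseed, miR-466a-3p fell by 1.27 ± 0.30 on the log2 scale, 2.42-fold (limma adjusted p = 0.0247; 14.5% of all tested microRNAs were called), and miR-466b-3-3p differed by -0.76 ± 0.28 (limma adjusted p = 0.0924). The interaction of diet with radiation was -0.92 ± 0.43 for miR-466a-3p (limma adjusted p = 0.174) and 0.43 ± 0.38 for miR-466b-3-3p (limma adjusted p = 0.459), so a different response on the diets was not shown for either. The call of miR-466a-3p on flaxseed was lost when levels were scaled to the control RNAs (limma adjusted p = 0.15), by primer pool (0.0545) or not at all (0.406), and without mouse 15, 17 or 18.

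**Figure D2:**
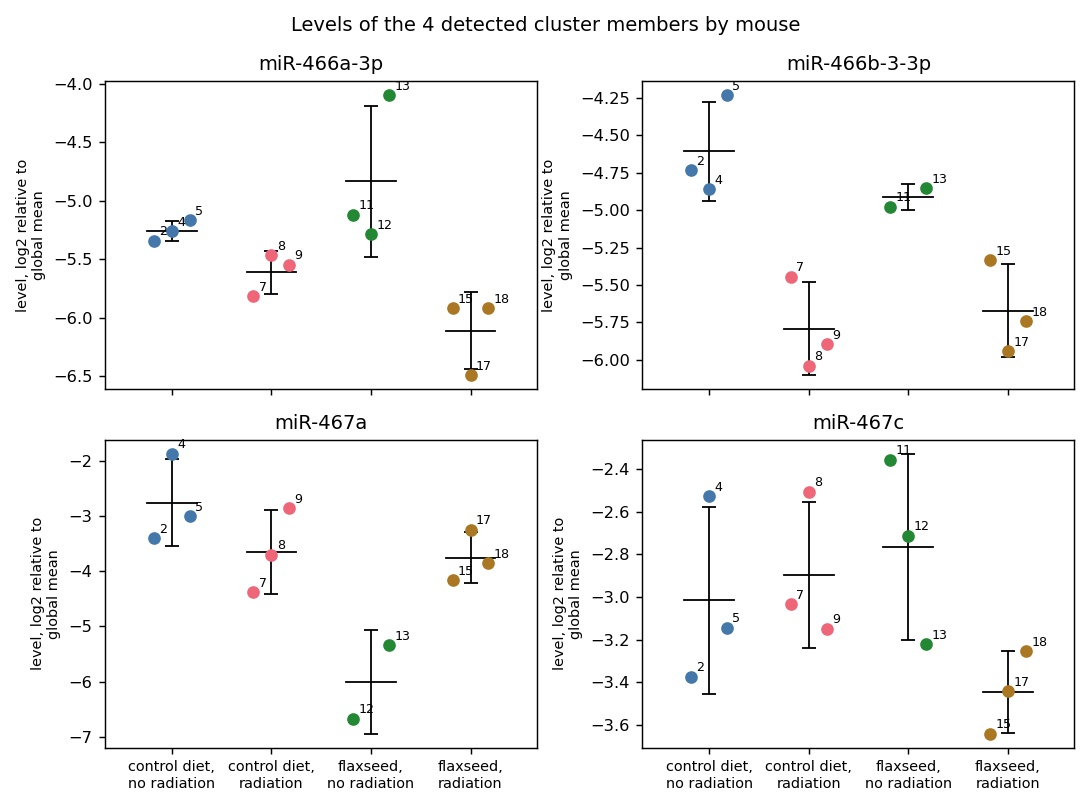
Each point is the log2 level of a member in 1 mouse relative to the global mean, with mouse numbers beside the points; lines and bars are the mean and SD of each group of 3 mice (2 for miR-466b-3-3p and miR-467a in unirradiated flaxseed mice). The miR-466 members sat lower in both irradiated groups, miR-467a was lowest in unirradiated flaxseed mice with means of -6.01 against -2.76, -3.65 and -3.76, and miR-467c overlapped across most groups.

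miR-467a was low in the unirradiated flaxseed mice. Its levels were -3.40, -1.87 and -3.00 in unirradiated control mice 2, 4 and 5, and -4.38, -3.70 and -2.86 in irradiated control mice 7, 8 and 9. In unirradiated flaxseed mice it was -6.67 in mouse 12 and -5.35 in mouse 13, and mouse 11 counted as undetected. In irradiated flaxseed mice 15, 17 and 18 it was -4.16, -3.25 and -3.86. The unirradiated flaxseed values thus lay below those of all other groups, which overlapped one another.

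The raw cycles show the same order without scaling. The Crt of miR-467a was 29.6, 26.7 and 26.5 in mice 11, 12 and 13, and 22.0 to 24.1 in the other 9 mice. The value of 29.6 is past the limit of 28 used for detection, so mouse 11 did not enter the fit and the fitted difference rests on 2 mice of that group.

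On flaxseed and without radiation, miR-467a fell by 3.25 ± 0.60 (SE) on the log2 scale, 9.50-fold (limma adjusted p = 0.0104), among 36 of 296 microRNAs called in either direction (12.2%) and 21 called lower (7.09%). With 1 mouse left out the difference ran from -3.92 without mouse 13 to -2.58 without mouse 12, and it was -4.24 with no Crt limit, which keeps mouse 11. Its 2 detected flaxseed mice lay below all 3 controls, as was so for 11.5% of microRNAs. There miR-466b-3-3p differed by -0.31 ± 0.28 (limma adjusted p = 0.481) and its groups overlapped. Under each other scaling, and without normalization, its flaxseed mice with a value lay wholly lower, as for 11.1% to 20.3% of microRNAs. In irradiated mice the difference of miR-467a between the diets was -0.11 ± 0.53 (limma adjusted p = 0.911). In that comparison 15 microRNAs were called (5.07%) and 0 of the 4 members, with 64 microRNAs at an unadjusted p under 0.05. The interaction term was 3.14 ± 0.80 (limma adjusted p = 0.0432), with 25 microRNAs called (8.45%), 4.73% with a positive term like that of miR-467a. Pooled over radiation, miR-467a fell by 1.68 ± 0.40 (limma adjusted p = 0.0377), the single member among 31 called (10.5%), 4.39% of the tested microRNAs being called lower. On flaxseed, miR-467a was higher in irradiated than in unirradiated mice by 2.25 ± 0.60, 4.75-fold (limma adjusted p = 0.0376). It was among 43 called (14.5%), 8.45% higher and 6.08% lower, of which 2 were members. All 4 members had groups that did not overlap there, miR-467a higher (15.5% of microRNAs) and the other 3 lower (29.1%).

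The unirradiated flaxseed mice can also be set against the irradiated control mice, whose Crt values are written in the same way. miR-467a fell by 2.36 ± 0.60 in that comparison (limma adjusted p = 0.0377), the single member among 41 called (13.9%, and 7.09% lower), and its groups did not overlap, as for 14.5% of microRNAs lower in that comparison. On the control diet, irradiated mice differed from unirradiated mice by -0.89 ± 0.53 in miR-467a (limma adjusted p = 0.776). Irradiated flaxseed mice differed from unirradiated controls by -0.998 ± 0.53 (limma adjusted p = 0.443). Every call of miR-467a thus involved the group that stands apart in detection. Leaving out mouse 12 ended all 5 of its calls; only mouse 13 then stood for that group, assumed to vary like the other groups, and the differences were -2.58 in unirradiated mice (limma adjusted p = 0.054), -1.35 pooled over radiation (0.0995), 1.59 for radiation on flaxseed (0.161), -1.70 against irradiated control (0.185) and 2.48 for the interaction (0.0944). Scaling to the control RNAs ended 4 of them, keeping that in unirradiated mice.

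miR-467a shares a primer pool with most of the microRNAs that fell in those mice. Of 21 microRNAs called lower with flaxseed in unirradiated mice, 19 were pool A assays, miR-467a among them, where 181 of all 296 tested assays are in pool A. The part of primer pool and of the low detection in this fall was not tested.

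In pool A, miR-467c and the opposite arm miR-467# also had values. miR-467c was at -3.37, -2.53 and -3.14 in mice 2, 4 and 5, at -3.03, -2.51 and -3.15 in mice 7, 8 and 9, at -2.36, -2.71 and -3.22 in mice 11, 12 and 13, and at -3.64, -3.44 and -3.25 in mice 15, 17 and 18. The irradiated flaxseed mice were the lowest group, wholly below the irradiated control mice, as were 22.6% of microRNAs and also miR-466a-3p, and wholly below the unirradiated flaxseed mice, while the other 3 groups overlapped. With flaxseed in unirradiated mice miR-467c differed by 0.25 ± 0.30 (limma adjusted p = 0.595), and with radiation on flaxseed by -0.68 ± 0.30 (unadjusted p = 0.0427, limma adjusted p = 0.139). It was called in none of the 9 comparisons.

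The opposite arm miR-467# is no member but comes from hairpins of the same family. Its mean level was -2.19 ± 0.53 (SD, n = 3) in unirradiated control, -2.24 ± 0.55 (n = 3) in irradiated control, -2.30 ± 0.10 (n = 2) in unirradiated flaxseed and -2.53 ± 0.36 (n = 3) in irradiated flaxseed mice. It had no Crt in mouse 13, so the unirradiated flaxseed mean rests on mice 11 and 12. The measured values of all 4 groups overlapped, and the difference with flaxseed in unirradiated mice was -0.10 ± 0.39 (limma adjusted p = 0.858).

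**Figure D3:**
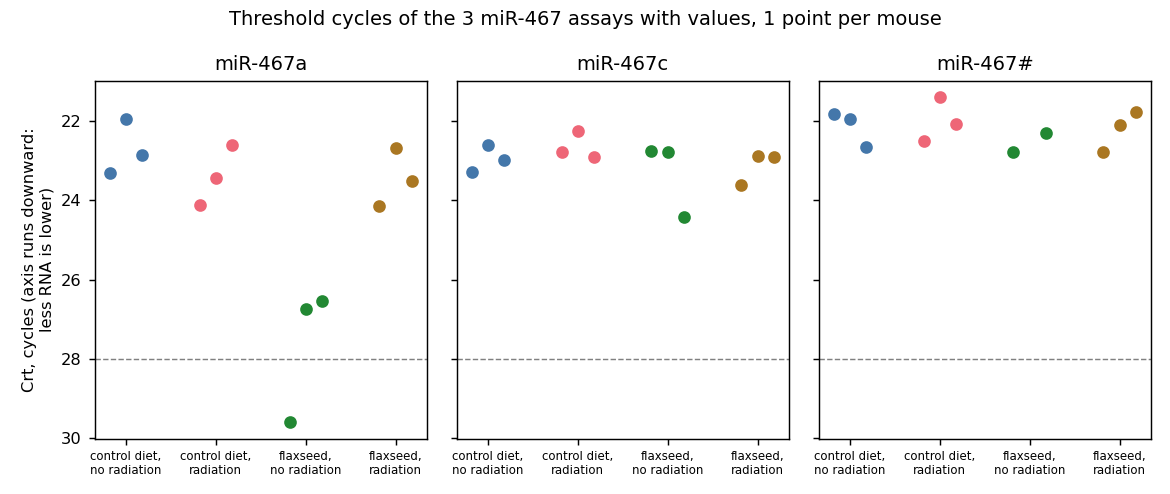
Raw Crt in cycles (vertical axis, inverted so that less RNA is lower) is plotted for the 3 miR-467 assays with values, 1 point per mouse in 4 groups; the dashed line is the detection limit of 28. miR-467a reached 26.5 to 29.6 in the unirradiated flaxseed mice and 22.0 to 24.1 in all others, while the groups of miR-467c and miR-467# (no Crt in mouse 13) overlapped.

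In mice given both treatments against mice given neither, no member was called, and limma called 1 of 296 microRNAs (0.338%), with 39 at an unadjusted p under 0.05. Both miR-466 members lay wholly lower, as 12.5% of microRNAs did, with differences of -1.06 ± 0.25 (SE) for miR-466b-3-3p (limma adjusted p = 0.102) and -0.85 ± 0.30 for miR-466a-3p (limma adjusted p = 0.22). In this comparison the Crt values of both groups are written in the same way. In unirradiated flaxseed against irradiated control mice the miR-466 pair lay wholly higher, as 18.6% of microRNAs did, by 0.88 ± 0.28 for miR-466b-3-3p (limma adjusted p = 0.0708) and 0.78 ± 0.30 for miR-466a-3p (limma adjusted p = 0.13). When the unirradiated flaxseed mice were left out of the fit, a choice made after seeing the data, the differences of both treatments against neither were -1.05 and -0.84, each with a limma adjusted p of 0.0895. The comparisons that share a group are not separate evidence for each other.

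**Figure D4:**
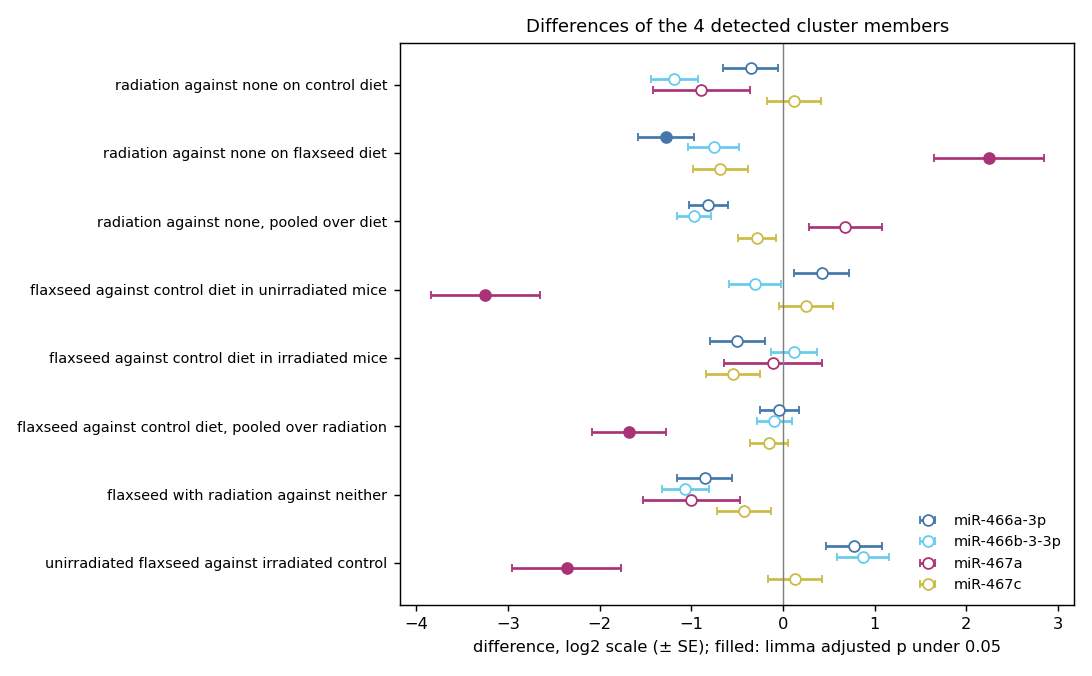
Points are limma differences on the log2 scale with SE bars for the 4 detected members (colours) in 8 comparisons of groups, the first-named group minus the second; filled points have an adjusted p under 0.05. miR-466a-3p and miR-466b-3-3p lie below 0 in all 3 comparisons of radiation with none, and the filled points of miR-467a range from -3.25 to 2.25.

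With 4 members tested, the list is described by its medians. The median difference was -0.55 pooled over diet, against -0.07 over all 296 tested microRNAs, -0.62 on the control diet against 0.01, and -0.72 on flaxseed against -0.25. With flaxseed the median was -0.12 pooled over radiation against 0.05, -0.03 in unirradiated mice against 0.22, and -0.30 in irradiated mice against 0.01. These medians rest on 4 members that did not all have the same sign. Pooled over diet, miR-467a differed with radiation by 0.68 ± 0.40 (SE, limma adjusted p = 0.475) and was not called. Its difference was -0.89 on the control diet, the sign of the miR-466 pair. On flaxseed it was 2.25, where 2 unirradiated mice had a detected value.

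Across mice, miR-466a-3p and miR-466b-3-3p varied together to a degree that did not hold after adjustment. Pairs with miR-467a were left out because its mice form separate clusters, so the adjustment does not cover them. Over 11 mice, Pearson's r was 0.603 (permutation p = 0.0437, adjusted over 3 pairs of members 0.131) and Spearman's rho 0.682 (permutation p = 0.0256, adjusted 0.0768), and r was 0.614 without the 2 mice farthest from the median. Within the split by decimals r was 0.707 over 5 mice and 0.934 over 6 mice. These mice share group differences and both assays are in pool B, so r is a description. The pair of miR-466a-3p with miR-467c had r = 0.327 over 12 mice and that of miR-466b-3-3p with miR-467c r = 0.045 over 11.

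For comparison, a list of other imprinted microRNAs was chosen from the Gnas-Nespas, Mest and Igf2-H19 loci. It held 9 assays on the panel, of miR-296, miR-298, miR-335, miR-483 and miR-675. Imprinted microRNAs of the Dlk1-Dio3 locus were left out of it, so the list does not stand for all imprinted microRNAs. Of the 9 assays, 3 were tested: miR-296 and both arms of the miR-335 hairpin (miR-335 and miR-335#). Pooled over radiation, 2 of these 3 rose with flaxseed and none fell, where 18 of all 296 microRNAs rose, with a median difference of 0.95, where the cluster had 1 call lower and a median of -0.12. Pooled over diet, 0 of the 3 were called with radiation, with a median of -0.29.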

How the data were processed

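MicroRNAs were measured in lung RNA of 12 mice. Per the labels' protocols, 100 ng of RNA was reverse transcribed with primer pools A and B, pre-amplified for 12 cycles and run on OpenArray plates. The authors deposited a table of Crt values, a log2 scale running downward, and a table of normalized log2 values of the same arrays. The sources used here do not give how Crt was called or normalized. Since the first table lists assays by position only, names came from the second by matching ranks mouse by mouse. Among 326 assays with values, 322 were matched, with a mean rank difference of at most 0.00727 and the next candidate at least 2.47 times farther away; 4 assays with 40 values were left out. qPCR carries no read depth, and 3839 of 9144 reactions had a Crt (9.61 to 31.74).

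A Crt below 28 counted as detected. Each mouse's mean over 260 microRNA assays was subtracted and the sign turned. Assays with a detected value in 2 or 3 mice of every group (296) entered a fit of 4 group means in limma 3.58.1 (R 4.3.3; 8 residual and 2.41 prior degrees of freedom), without imputation (36 assays had missing values), and p was adjusted by Benjamini and Hochberg over all 296 in each of 9 comparisons, with a call at an adjusted p under 0.05. Correlations used 100000 permutations (scipy 1.17.1) and left out miR-467a. Every member with a value is named. The members, lists and tests were chosen with earlier results of these data known.

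Alternatives were quantile normalization, scaling to 10 control RNAs or within pools, no normalization, the authors' values, Crt limits of 26 or none, other filters, undetected reactions set to 28, the compared groups alone and leaving out each mouse. The script was tested on simulated data (20 draws of flaxseed against control diet in unirradiated mice, 296 assays): shifts of 1 and 2 were recovered in 45% and 79.5% of cases, and 0.293% of unchanged assays were called. The draws gave each assay independent noise, without differences in yield between mice or pools, so these rates need not hold for the measured data.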

Additional observations from a re-analysis of the deposited data

Results flagged for a closer look

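The difference between the diets in miR-467a was -3.25 in unirradiated and -0.11 in irradiated mice on the log2 scale, and the interaction term was 3.14 ± 0.80 (SE, limma adjusted p = 0.0432). Over the alternatives the term ranged from 2.48 to 4.12, with adjusted p from 0.00813 to 0.106, and it was called in 6 of 19. Mouse 11 was undetected at the limit of 28, and the interaction sets the unirradiated control and irradiated flaxseed mice against the other 2 groups, which is exactly the split in the decimals of Crt, so the term and the split cannot be told apart.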

How the results depend on the processing

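Counts of called members (1 with flaxseed pooled, 1 with flaxseed in unirradiated mice, 2 with radiation on flaxseed, 1 in unirradiated flaxseed against irradiated control, 1 for the interaction) changed as follows. Scaling to the control RNAs gave 0 in all of these but flaxseed in unirradiated mice. A Crt limit of 26 and the filter on all 12 mice, which leave 2 members to test, gave 1 with radiation on flaxseed and 0 elsewhere. The authors' values gave 1 with radiation on flaxseed and 0 in unirradiated flaxseed against irradiated control and for the interaction. Scaling within pools and no normalization gave 1 with radiation on flaxseed. The compared groups alone gave 0 in the 3 comparisons of 2 groups. No Crt limit, and undetected reactions set to 28, gave 0 for the interaction. Leaving out each mouse gave 0 to 2 with radiation on flaxseed (0 without mouse 15, 17 or 18, and 1 without 8 or 12) and 0 to 1 in the other 4: 0 without mouse 12 with flaxseed in unirradiated mice, without 4, 5, 8, 9, 12, 15 or 18 pooled, without 5, 8, 9, 12, 15, 17 or 18 against irradiated control, and without 2, 4, 5, 7, 8, 12, 15, 17 or 18 for the interaction. The other 4 comparisons kept 0 called members under every alternative run. The cause of these changes was not tested.

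Directions turned only for uncalled differences. For miR-466a-3p, flaxseed pooled became 0.0008 with the authors' values and -0.23 to 0.0778 with a mouse left out, and without normalization flaxseed in unirradiated mice became -0.19 and unirradiated flaxseed against irradiated control -0.039. For miR-466b-3-3p, radiation on flaxseed became 0.36 without normalization and 0.25 with undetected reactions set to 28, and unirradiated flaxseed against irradiated control -0.18 and -0.13. With a mouse left out, its flaxseed difference ran from -0.18 to 0.001 pooled and from -0.0484 to 0.29 in irradiated mice. For miR-467a, flaxseed in irradiated mice became 0.0258 with quantile normalization and ran from -0.48 to 0.28 with a mouse left out. For miR-467c without normalization, radiation pooled became 0.25, radiation on flaxseed 0.19, flaxseed in unirradiated mice -0.36 and unirradiated flaxseed against irradiated control -0.68. The last 2 became -0.0617 and -0.12 with quantile normalization and -0.12 and -0.14 with control RNAs. With a mouse left out, radiation on control diet ran from -0.0699 to 0.36 and unirradiated flaxseed against irradiated control from -0.0212 to 0.36. No paired analysis was possible because the groups share no mouse numbers. With 3 mice a group, 45% of simulated shifts of 1 over all 296 assays were called in flaxseed against control diet in unirradiated mice. The simulation had no differences in yield between mice.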
